A study of Arabidopsis thaliana with 8 samples.

Results

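Tiles TC00A01 to TC13C10 form the first stretch of the TC series on an array that tiles chromosome 4 of Arabidopsis thaliana, up to a break in the plate numbers after TC13. A tile is one array feature, and its ID gives a series, a plate and a well. The stretch was taken by ID alone: series TC, plates 00 to 13, with a value on all 8 arrays. It held 1266 such tiles of the 1282 listed on these 14 plates, out of 21296 tiles with a value on the array. The next listed tile after TC13C10 is TC17D01. Genes, coordinates and sequences of the tiles were not used here, so tiles are named by their ID, and the ID numbering is used as an order.

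The array compared DNA from a chromatin immunoprecipitation (IP) of H3K4me2, histone H3 dimethylated at lysine 4, with the input DNA of the same chromatin. The chromatin came from untreated whole seedlings of C24, an Arabidopsis accession, kept in liquid medium until 10 days of age, so each value is an average over all cell types of a seedling. The 4 replicates, I to IV, each of 50 µg, were hybridised in both dye orientations; C24 was the only genotype, and input DNA was the only control. Separate cultures are not stated for the replicates. Any p-value here thus rests on the spread between these samples, which may be technical.

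H3K4me2 is a mark of euchromatin. In plants it is known to lie over genes, both transcribed and silent, and to be scarce over transposons and the condensed heterochromatin around centromeres and in the chromosome 4 knob. Lysine 4 methylation is placed by Trithorax-type methyltransferases and is removed by demethylases of the LSD1 and JmjC families.

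The values are processed log ratios of IP and input. Neither the base of the logarithm nor which of IP and input is the numerator is given in the sources used here. A tile is therefore placed above or below its array median, in the units as deposited, and is never called enriched or depleted. Both arrays of a dye swap held the same number at every tile, so each swap was counted as 1 value and n was 4. Signal over background is unknown. Replicates I and III resembled each other, as did II and IV. Across the 1266 tiles, which are not independent replicates, Pearson's r was 0.973 for the pair I and III, 0.979 for the pair II and IV, and 0.903 to 0.910 for the other pairs. Differences taken tile by tile had an SD of 0.224 and 0.213 in the close pairs and 0.425 to 0.442 in the others. Counts of called tiles are therefore also given with these pairs averaged.

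Most tiles of the stretch lay above the array median. Over its tiles the median was 0.46 in replicate I, then 0.40 (II), 0.49 (III) and 0.34 (IV), or 0.42 ± 0.07 (SD, n = 4). All 4 replicates were above 0, with I and III the higher pair. By limma's moderated test at a Benjamini-Hochberg adjusted p of 0.05, 703 of the 1266 tiles (55.5%) were above the array median, where 42.2% of all tiles on the array were. The same test put 342 tiles (27.0%) below it, where the share on the whole array was 42.3%, and 221 tiles were not called. Of the called tiles, 696 were above in all 4 replicates and 339 were below in all 4. The calls rest on these same 4 values, so this agreement is no separate support for them.

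The side of the median depends on where 0 is set. With the values as deposited, 333 tiles of the stretch were above 0 and 533 below (background 20.5% and 54.9%). With each array centred on its mode, 347 were above and 552 below (background 22.5% and 57.0%). The mode lay 0.96 above the median in II but 0.57, 0.52 and 0.49 above it in I, III and IV. Centring on it therefore moved II against the other replicates, and the fit took nearly 1 common spread for all tiles. Tiles above thus made up 67.3% of those called with the array median as 0, 38.5% as deposited and 38.6% with the mode. Averaging each of the resembling pairs first left 628 tiles above and 282 below (background 37.9% and 38.2%). That fit takes nearly 1 common spread for all tiles. Leaving out I, II, III or IV gave 672, 688, 676 and 688 tiles above (background 40.8%, 40.8%, 41.2% and 40.8%) and 325, 311, 331 and 318 below (background 41.0%, 40.9%, 41.3% and 40.8%). Of the tiles called with averaged pairs, 627 and 282 were also called, on the same side, from the 4 separate replicates.

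The stretch was higher than the rest of the array, and far higher than the plates after the numbering break. Its median exceeded that of all other tiles, at -0.035 ± 0.003, in every replicate: I gave 0.50, II 0.43, III 0.53 and IV 0.38. The mean difference was 0.46 ± 0.07 (SD, n = 4; exact permutation p over sign flips, two-sided, 0.13, which no set of 4 replicates can go below). Plates TC17 to TC30, with 1099 measured tiles, had a median of -2.23 ± 0.15. The stretch exceeded them by 2.81 (I), 2.49 (II), 2.87 (III) and 2.46 (IV), a mean of 2.66 ± 0.21 with the same sign in 4 of 4 replicates (exact sign-flip p = 0.13). Both differences were larger than the spread between replicates, although the test cannot pass 0.05 with this number of replicates. All sign-flip tests here treat I to IV as 4 independent units, although I resembled III and II resembled IV.

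The stretch lay close to the TB series, which has 9462 measured tiles on 100 plates. The median was 0.42 ± 0.07 in TC00 to TC13 and 0.48 ± 0.02 in TB. The difference of -0.06 ± 0.09 was negative in 3 of 4 replicates and ran from -0.15 in IV to 0.04 in III (exact sign-flip p = 0.375). It followed the replicate pairs, at -0.003 and 0.036 in I and III but -0.111 and -0.147 in II and IV. Tiles varied a little less within the stretch than within TB: the interquartile range was 1.43 ± 0.06 in TC00 to TC13 and 1.50 ± 0.08 in TB, narrower in 4 of 4 replicates by 0.04 to 0.09 (exact sign-flip p = 0.13). Adjusted over the 4 differences tested, these p-values were 0.167, and 0.375 for the median against TB. The titles of the arrays hold 2 numbers of unstated meaning, the second of which I shares with II, and III with IV. Within these pairs of replicates, the mean differences from all other tiles, TC17 to TC30 and TB were 0.46, 2.65 and -0.06 for I with II, and 0.45, 2.66 and -0.06 for III with IV. For the interquartile range against TB they were -0.06 and -0.07.

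Tiles far below the array median made up a smaller share of the stretch than of all tiles. The mean over replicates was more than 2 below the array median in 16 cases (1.26%), against 2852 of all 21296 tiles (13.4%) and 177 of 9462 TB tiles (1.87%). It was more than 1 below in 129 (10.2%), against 26.3% of all tiles and 9.59% of TB tiles. On the high side, 345 tiles (27.3%) were more than 1 above, against 22.3% of all tiles and 30.5% of TB tiles. In 23 cases (1.82%) the mean was more than 2 above, against 2.49% of all tiles and 3.42% of TB tiles. These counts depend on the zero: from the mode of each array, 66 tiles (5.21%) were more than 2 below, against 20.5% of all tiles and 4.61% of TB tiles, and 307 (24.2%) were more than 1 below, against 40.4% and 23.8%. From the mode 81 tiles (6.40%) were more than 1 above, against 6.77% of all tiles and 9.37% of TB tiles. In plates TC17 to TC30, 672 tiles (61.1%) were more than 2 below and none was more than 2 above.

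**Figure D1:**
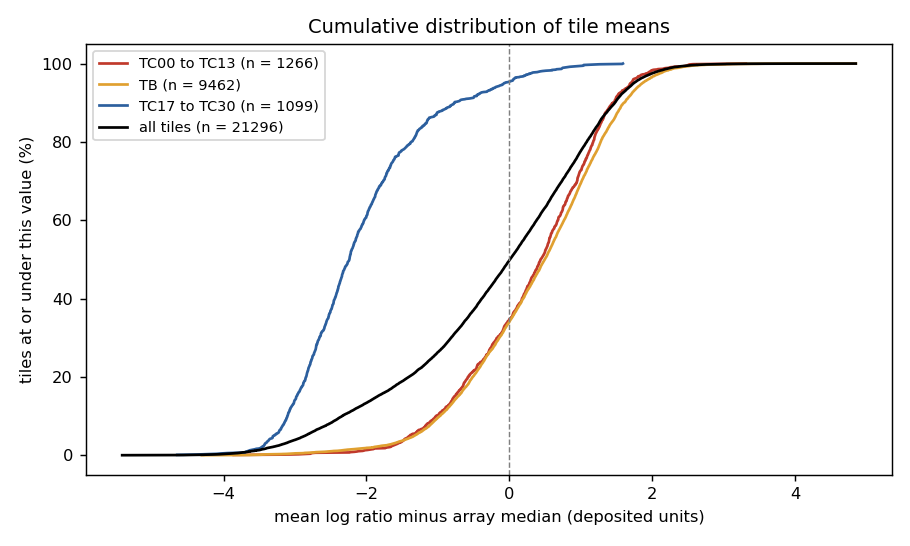
Cumulative share of tiles (%) by mean log ratio over 4 replicates, minus the array median, in deposited units, for TC00 to TC13, TB, TC17 to TC30 and all tiles. The curve of TC00 to TC13 runs beside that of TB and lacks most of the low tail of all tiles, with 1.26% of its tiles under -2 against 13.4%.

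The 14 plates were not alike (the plot of plate medians). The highest was TC05, with a median of 0.89 (I), 1.01 (II), 0.93 (III) and 0.98 (IV). On it 78 of 96 tiles (81%) were above the array median by limma's test and 3 (3.1%) were below. Over all tiles of the array these shares were 42.2% and 42.3%. The lowest was TC03, with a median of -0.17 (I), -0.41 (II), -0.36 (III) and -0.44 (IV). On TC03 30 of 91 tiles (33.0%) were above and 48 (52.7%) below. The replicates of TC05 and TC03 do not overlap. Sorted by level, the plates ran TC05 (0.95 ± 0.05), TC07 (0.86 ± 0.10), TC06 (0.83 ± 0.08), TC09 (0.73 ± 0.09), TC10 (0.71 ± 0.07), TC12 (0.60 ± 0.04) and TC11 (0.58 ± 0.02), then TC08 (0.26 ± 0.06), TC01 (0.14 ± 0.13), TC13 (0.11 ± 0.07), TC02 (0.01 ± 0.11), TC04 (-0.05 ± 0.14), TC00 (-0.20 ± 0.06) and TC03 (-0.35 ± 0.12). Neighbours in this order overlapped over their replicates in every case but TC11 and TC08, which were 0.32 apart.

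**Figure D2:**
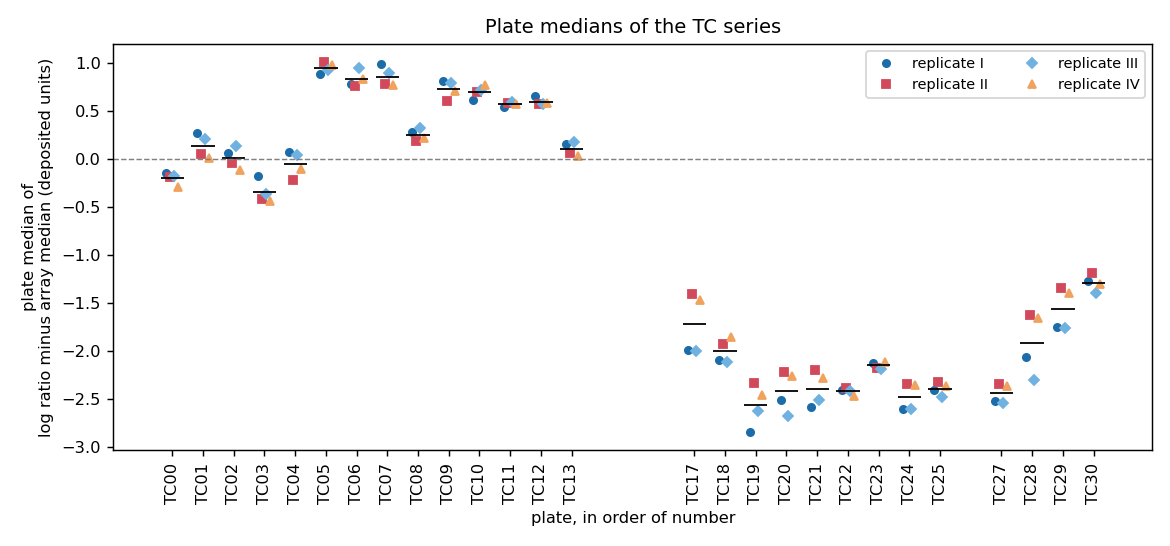
Median log ratio of each TC plate minus the array median, in deposited units, by replicate (points), with the mean of the 4 as a bar and the array median as the dashed line. TC00 to TC04 lie around 0, TC05 to TC12 from 0.26 to 0.95, TC13 at 0.11, and every plate from TC17 on at -1.29 or lower.

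The plates were divided between TC04 and TC05 after the values were seen, so the difference is given without a test. The level did not change in a single step. On the later side, TC08 (0.26 ± 0.06) and TC13 (0.11 ± 0.07) overlapped TC01 (0.14 ± 0.13) over their replicates. On the earlier side, row TC04E already had a median of 0.92 ± 0.04. Plates TC05 to TC13 had a median of 0.67 ± 0.04 (SD, n = 4) over 794 tiles, against -0.07 ± 0.14 over 472 tiles on TC00 to TC04. The difference was 0.64 (I), 0.82 (II), 0.67 (III) and 0.83 (IV). Of the tiles on TC05 to TC13, 528 (66.5%) were above the array median and 140 (17.6%) below, against 175 (37.1%) above and 202 (42.8%) below on TC00 to TC04. Over all tiles of the array the shares were 42.2% above and 42.3% below, so the share below on TC00 to TC04 was near that of the array. The border itself was smooth, with the last tile of TC04, TC04H12, at 1.40 and TC05A01 at 1.03.

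Among rows of a plate, each of up to 12 consecutive wells, 78 of 107 had a median above 0. On TC05 to TC13 only 6 of 67 rows were below 0, against 23 of 40 on TC00 to TC04. The row with the highest median was TC07E, at 1.63 ± 0.22 (SD, n = 4), followed by TC10E at 1.34 ± 0.05 and TC10H at 1.30 ± 0.12. The lowest were TC03E at -1.26 ± 0.15, TC00D at -1.22 ± 0.29 and TC03C at -1.22 ± 0.09. In 90 of the 107 rows tiles were called on both sides of the median.

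**Figure D3:**
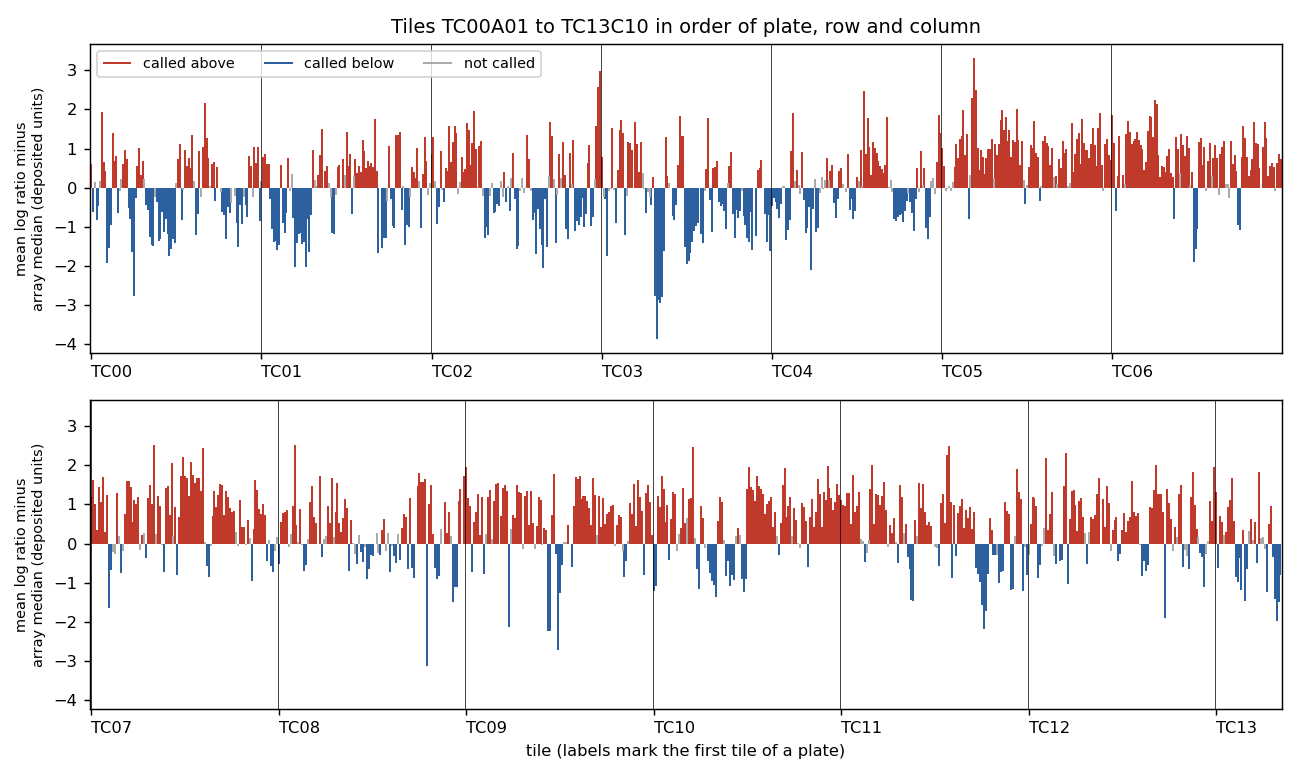
Mean log ratio over 4 replicates minus the array median, in deposited units, for each of the 1266 tiles in order of plate, row and column, coloured by limma's call (above, below, not called) at an adjusted p of 0.05. On TC00 to TC04 202 of 472 tiles are called below, a share of 42.8% against 42.3% of all tiles. The lowest tile of the stretch lies on TC03 at -3.86. On TC05 to TC07 221 of 287 tiles (77.0%, against 42.2% of all tiles) are called above and 22 (7.67%, against 42.3%) below.

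The highest tile of the stretch was TC05B07, with 2.97 (I), 3.89 (II), 2.88 (III) and 3.49 (IV). Its mean was 3.31 ± 0.47 (SD, n = 4; limma adjusted p = 1.4e-06). All replicates were far above 0, with II and IV above I and III. It was the summit of a peak that rose and fell over several tiles: TC05B05 was at 0.31 and not called, TC05B06 at 2.30 ± 0.43, TC05B08 at 2.49 ± 0.43 and TC05B09 at 1.02 ± 0.17. In the other direction, TC05B04, at -0.80 ± 0.28, was the lowest tile of plate TC05.

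The next highest tiles, TC02H12 and TC02H11, adjoin each other at the end of a plate whose median was 0.01. TC02H12 had 2.81 (I), 3.06 (II), 2.79 (III) and 3.21 (IV) (limma adjusted p = 3.2e-07), and TC02H11 had 2.36, 2.74, 2.56 and 2.63 in the same order (limma adjusted p = 4.0e-07). The values on either side fell away within a few tiles. Before them TC02H10 was at 1.58, TC02H09 at 0.23 and TC02H08 at -0.74, and after them TC03A01 was at 0.77 and TC03A02 at -0.25. The peak therefore continued over the plate border.

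The other high tiles chosen by the rule for named tiles were TC07C09 at 2.52 ± 0.45, TC08A09 at 2.51 ± 0.11, TC11E08 at 2.50 ± 0.25, TC05B08 as above, and TC10B09 at 2.48 ± 0.16. The rule took only tiles past limma's threshold, and the limma adjusted p of these was 4.6e-06 or less. TC11E08 had a high neighbour, TC11E07 at 2.25. The summits of TC07C09, TC08A09 and TC10B09 were single tiles: TC07C09 lay between 1.01 and 0.25, TC08A09 between 0.95 and 0.47, and TC10B09 between 1.17 and 0.15. The 23 tiles more than 2 above the median were spread over 10 of the 14 plates, with 5 on TC07 and 4 on TC05.

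The lowest tile, TC03C08, had -4.05 (I), -3.70 (II), -3.97 (III) and -3.72 (IV), a mean of -3.86 ± 0.17 (SD, n = 4; limma adjusted p = 2.4e-07). It belonged to a block of 6 consecutive low tiles, with TC03C07 at -2.78 ± 0.35, TC03C09 at -2.87 ± 0.29, TC03C10 at -2.95 ± 0.18, TC03C11 at -2.78 ± 0.35 and TC03C12 at -1.62 ± 0.11. Both edges were abrupt. TC03C06, just before the block, was at 0.26 ± 0.16, and TC03D01, just after it, was at 1.29 ± 0.29, above 0 in every replicate. These 5 tiles from TC03C07 to TC03C11 are 5 of the 16 tiles of the stretch that were more than 2 below the median.

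Of the other named low tiles, TC08G05 stood alone. It had -3.22 (I), -2.67 (II), -3.15 (III) and -3.51 (IV) (limma adjusted p = 7.0e-07), while TC08G04 before it was at 1.64 ± 0.15 and TC08G06 after it at 1.02 ± 0.15. The step of -4.78 ± 0.28 between TC08G04 and TC08G05 was the largest step between adjacent tiles of the stretch, and the rise of 4.15 ± 0.29 that followed was the next largest. The 4 tiles TC08G01 to TC08G04 all lay from 1.58 to 1.79. Among the 124 tiles more than 1 below the median with measured neighbours, 3 (2.42%) lay between neighbours called above: TC08G05, TC12F11 at -1.90 and TC12B09 at -1.04. In TB this was so for 20 of 872 (2.29%).

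TC09D12 had -2.77 (I), -2.69 (II), -2.64 (III) and -2.76 (IV) (limma adjusted p = 2.5e-07), with TC09D11 at -0.27 and TC09E01 at -1.26, both also called below. The same row held another pair of low tiles, TC09D07 at -2.24 ± 0.07 and TC09D08 at -2.23 ± 0.17, between TC09D06 at 0.36 and TC09D09 at 0.72. TC09 was thus a plate with a high median, 0.73, that held 4 tiles more than 2 below the array median. TC00C01, at -2.76 ± 0.28 (limma adjusted p = 6.7e-07), followed TC00B12 at -1.65 and preceded TC00C02 at -0.25.

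**Figure D4:**
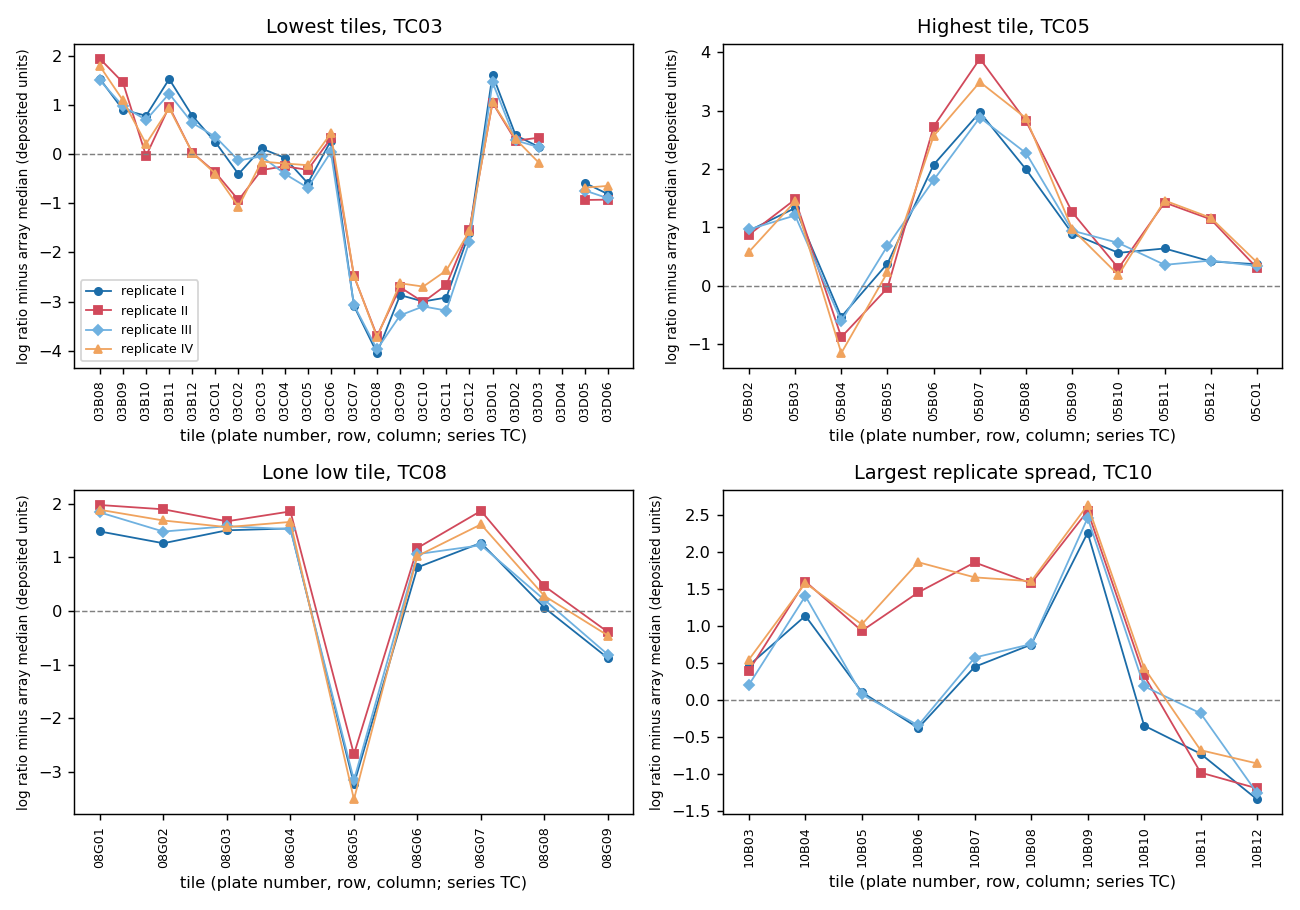
Log ratio minus the array median, in deposited units, by replicate for consecutive tiles around the lowest tile (TC03C08), the highest (TC05B07), the lone low tile TC08G05 and the tile with the largest SD over replicates (TC10B06); the gap in the TC03 panel is a tile without a value. All 4 replicates are low from TC03C07 to TC03C12 and at TC08G05, and they separate by pair, I and III below II and IV, at TC10B05 to TC10B08.

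Tiles called on the same side came in runs along the numbering. With a run ended by an uncalled or missing tile, the 703 tiles above fell into 178 runs, on average 3.95 tiles long, and 405 of them (57.6%) lay in runs of 5 or more. The 342 tiles below fell into 137 runs, on average 2.50 long, and 135 of them (39.5%) lay in runs of 5 or more. With I and III, and II and IV, averaged first, 302 tiles above (48.1%) and 87 below (30.9%) lay in such runs. Taking the wells column by column, the mean lengths were 2.48 above and 1.51 below, so the order along rows carried the runs. Run length also rises with the share of tiles called, which was 55.5% above and 27.0% below. Runs were counted from the array median only, and not outside the stretch. With the values as deposited 333 tiles were called above and 533 below, and centred on the mode 347 and 552. Whether runs above are also the longer ones under those settings was not tested.

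The longest run above was of 27 tiles, from TC06A09 to TC06C11, with a median of 1.15 ± 0.10 (SD, n = 4). Its first tile, TC06A09, was at 1.37 ± 0.14 and its most extreme, TC06C01, at 2.25 ± 0.10. Its last tile, TC06C11, had a mean of -0.34 as deposited and -0.35 with the mode. Centred on the array median, TC06C11 was at 0.28 ± 0.20 and called above with a limma adjusted p of 0.038. That call was lost with replicate I, II or IV left out, and with the pairs averaged (limma adjusted p = 0.23) or as a random block (limma adjusted p = 0.20), and with the pairs averaged the longest run above had 19 tiles. Other long runs above spanned TC10G09 to TC11A10, with 26 tiles at a median of 1.14 ± 0.08 across a plate border, and TC07D10 to TC07E10, with 13 tiles at the high median of 1.70 ± 0.19.

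The longest runs below had 11 tiles each. The first ran from TC00D02, at -0.38 ± 0.14, to TC00D12, at -1.41 ± 0.15, with its lowest tile TC00D09 at -1.74 ± 0.19. Its median was -1.02 (I), -1.42 (II), -1.14 (III) and -1.56 (IV), so that II and IV were lower than I and III. The other ran from TC01B07 to TC01C05, at a median of -1.36 ± 0.04 that was nearly equal in the 4 replicates. Long runs below lay at the start of the stretch: all 6 runs below of 8 tiles or more began on TC00 to TC04, and none on TC05 to TC13. Of the runs above of 8 tiles or more, 3 began on TC00 to TC04 and 19 on TC05 to TC13. These groups of plates, divided after the values were seen, hold 472 and 794 tiles. The share called below was 42.8% on TC00 to TC04 and 17.6% on TC05 to TC13, and that called above 37.1% and 66.5%. Run length rises with that share, so the counts of long runs are not a separate result.

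The resemblance of neighbours fell steeply over the first 3 tiles and slowly after that (the plot of correlation by distance). Across adjacent tiles of the stretch Pearson's r was 0.53 (I), 0.58 (II), 0.54 (III) and 0.56 (IV), a mean of 0.55 ± 0.03 (SD, n = 4) over 1249 pairs. Tiles 2 apart had an r of 0.31 ± 0.03, those 3 apart 0.18 ± 0.02, those 8 apart 0.17 ± 0.01 and those 12 apart 0.12 ± 0.02. At 24 tiles r was still 0.12 ± 0.01, and at 96 tiles 0.07 ± 0.02. With each plate's median removed it was 0.48 ± 0.03 between adjacent tiles and -0.02 ± 0.01 at 12. In TB the mean was 0.58 between adjacent tiles and 0.35 at a distance of 2. In plates TC17 to TC30 it was 0.51 and 0.42. These values describe tiles that share plates, arrays and labelling, and tiles are not independent of each other.

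**Figure D5:**
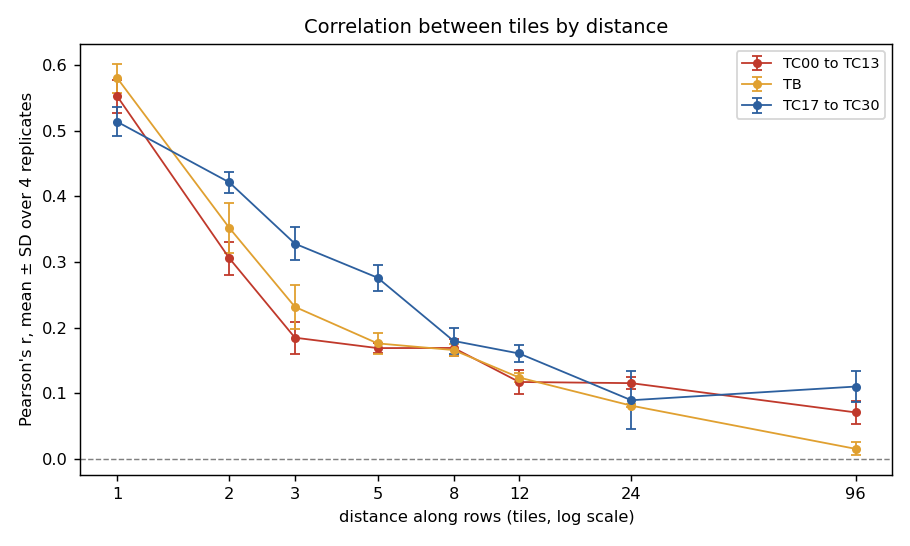
Pearson's r between tiles at a given distance along the rows (log scale), as mean ± SD over 4 replicates, for TC00 to TC13, TB and TC17 to TC30. In TC00 to TC13 r falls from 0.55 at 1 tile to 0.18 at 3 tiles, below TC17 to TC30 at distances of 2 to 5.

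Values on the 2 sides of a plate border tended to resemble each other. At the 13 borders within the stretch the means over replicates of the tiles on the 2 sides had the same sign in 10 cases. These means had an r of 0.61 across borders. The 13 pairs are few, and most tiles of the stretch lay above 0, which by itself makes like signs common. The largest step at a border, from TC02H12 at 2.97 to TC03A01 at 0.77, is the falling side of the peak described above. The median absolute step between means over replicates was 0.70 at the borders. Taken within each replicate, which is another measure, it was 0.57 ± 0.01 (SD, n = 4) between all adjacent tiles of the stretch and 0.58 ± 0.01 in TB. By well position, the medians over the stretch were lowest in columns 11 and 12, at 0.26 and 0.18, against 0.36 to 0.56 in columns 1 to 10, and among rows in G, at 0.11.

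The first tile of the stretch, TC00A01, was at 0.79 (I), 0.49 (II), 1.03 (III) and 0.11 (IV) (limma adjusted p = 0.007), and with the values as deposited or centred on the mode its mean was just below 0. The next tile, TC00A02, was at -0.61, and the first row of wells, TC00A, had a median of -0.13 ± 0.05 (SD, n = 4), with 4 tiles called above and 6 below. The last 5 tiles, TC13C06 to TC13C10, were all called below, at -0.35, -1.41, -1.98, -1.49 and -0.79. Before them TC13C05 was at 0.95 and TC13B11 at 1.84. TC17D01, the next listed tile, was at -2.37 (I), -1.41 (II), -2.24 (III) and -1.98 (IV), and TC17D02 after it was at -0.39. The median of TC13, at 0.11, and of TC17, at -1.72, did not overlap over replicates.

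The error of a tile was like that of the rest of the array: the median SD over 4 replicates was 0.215 in the stretch and 0.217 in all other tiles, and the median standard error from limma was 0.109 in both. The number of arrays limits the precision. The largest SD was that of TC10B06, with -0.37 in I and -0.34 in III but 1.45 in II and 1.86 in IV. Its mean of 0.65 ± 1.18 was not called (limma adjusted p = 0.15). The tiles on both sides divided in the same way: TC10B05 had 0.11 and 0.08 in I and III and 0.93 and 1.02 in II and IV, and TC10B07 had 0.45 and 0.58 in I and III and 1.86 and 1.66 in II and IV. At TC10B09, 3 tiles on, the replicates again lay together at 2.26 to 2.63.

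Such tiles occurred in both directions. The mean of II and IV was more than 1 above that of I and III in 9 tiles, among them TC05A10 by 1.41, TC09D02 by 1.31 and TC09F08 by 1.27. It was more than 1 below in 10 tiles, among them TC09A07 by -1.26 and TC01D11 by -1.19. At a bound of 0.5 the counts were unequal, with 95 tiles above and 186 below. Over all 1266 tiles the median of this difference was -0.12 with an SD of 0.41, and its r between adjacent tiles was 0.40. The counts at both bounds were not made for other tiles. Taken tile by tile, II minus I had a median of -0.095 in the stretch, 0.041 in all other tiles and 0.017 in TB. For IV minus III the medians were -0.141, 0.032 and 0.004 in the same order. The plate medians of II minus I ran from -0.31 on TC01 to 0.08 on TC10, and those of IV minus III from -0.31 on TC02 to 0.02 on TC05. What distinguishes the pairs is not given in the labels and was not tested.

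Of the 16 tiles without a value, 5 were on TC03 and 4 on TC08, and the other 7 were on 6 plates. No 2 of them were adjacent, so no longer part of the stretch is missing within its numbering.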

How the data were processed

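The authors' deposited value table holds 1 processed log ratio per feature and array, with columns that were not centred; per the labels' protocols, amplified DNA carried the dyes Cy3 and Cy5 by direct labelling. For log base, direction, software, background correction and normalization the state is: not given in the sources used here. No log2 scale is assumed.

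The 39 features whose ID is not a plate and well had no value, nor had 465 of 21761 tiles. The number shared by both arrays of a dye swap was taken once and centred on that replicate's median over 21296 tiles. No loess or quantile step was applied. limma 3.58.1 (R 4.3.3) compared each tile's mean with 0 (lmFit, eBayes, 3 residual degrees of freedom, Benjamini-Hochberg over all tiles at 0.05), tested on simulated data first. The simulated noise was independent between replicates, so it cannot show how the resemblance of replicate pairs affects the calls. Differences between sets of tiles were 1 value per replicate, tested by exact sign flips. Other statistics used Python 3.11.15, numpy 2.4.6 and pandas 2.3.3.

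Named tiles were the 8 highest and 8 lowest called with 1 sign in all replicates, the ends and extreme tile of the longest runs, the ends of the stretch, the first tile after the break and the tile with the largest SD; other tiles were named after their values were seen, as neighbours or examples. The stretch, the comparisons and this rule were chosen with earlier results of these data known. Alternatives tried were centring, scaling, quantile normalization, a minimum change, averaged or blocked replicate pairs, other eBayes settings, each replicate left out, reading wells down columns, and means in place of medians.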

Additional observations from a re-analysis of the deposited data

Results flagged for a closer look

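Among 44 sets of 4 replicate values examined, 2 had 1 replicate set apart, where chance gives about 1 in 20. On plate TC12 the gap was 0.898 of the range: the median was 0.66 in I and 0.57 to 0.58 in II, III and IV. At tile TC06A09 the gap was 0.868 of the range, with 1.58 in IV and 1.29 to 1.33 in the others.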

How the results depend on the processing

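Averaged over replicates, the 3 differences of medians and that of the interquartile range kept their direction under every alternative run, replicates left out included. For the median against TB the direction is not settled: replicates differed in sign, and the mean was -0.026 without IV. Counts of called tiles moved by over 1.5 times only with another zero. They were 333 above and 533 below as deposited (background 20.5% and 54.9%), and 347 and 552 centred on the mode (background 22.5% and 57.0%). Runs of called tiles were counted from the array median only, so their change under these settings was not tested. Centred on the mode, 81 tiles (6.40%, against 6.77% of all tiles) were more than 1 above and 2 (0.158%, against 0.329%) more than 2 above. On the low side, 307 (24.2%, against 40.4%) were more than 1 below and 66 (5.21%, against 20.5%) more than 2 below. Read down columns, the runs above had a mean length of 2.48 and a longest of 17, those below 1.51 and 5, and the r of adjacent tiles was 0.12; with plate medians removed it was 0.48. Of the named tiles, 2 changed sign: TC06C11 to -0.34 as deposited and -0.35 with the mode, and TC00A01 to -0.020 and -0.033. TC00D02 lost its call with pairs averaged or blocked (limma adjusted p = 0.11 and 0.051) and under the minimum change, and TC10B06 was called with pairs averaged and without I or III. With a replicate left out, 672 to 688 tiles were above (background 40.8% to 41.2%) and 311 to 331 below (background 40.8% to 41.3%). No paired analysis was possible because the samples form 1 group, so there are no groups to pair; differences between sets of tiles were taken within each replicate. Depth over background is unknown.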
